A study of Homo sapiens with 16 samples.

Results

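Broadly expressed genes of the long arm of chromosome 1 (1q) were followed through human neural crest induction in cells with and without edits of FOXB1. They are the genes of the deposited expression table whose hg19 locus lies on chromosome 1 and starts beyond position 125000000, with a single symbol and at least 5 FPKM (fragments per kilobase of transcript, scaled to the fragments of the library) in each of 6 groups. Symbols starting with RPL or RPS were left out. The rule found 381 genes, out of 1117 table genes of the arm and 23284 genes in all. Of the other arm genes, 581 stayed below 5 FPKM in every group and 147 in 1 to 5 groups, 3 carried several symbols and 5 were RPL or RPS genes. The members ran from PPIAL4G (chr1:143767144-143767881), a cyclophilin-like family copy, to ZNF692 (chr1:249144203-249153315), a zinc finger gene. FAM72B (chr1:120839005-120855681) was the last gene before that position that met the same level rule. The members were thus chosen by their FPKM in all 6 groups, and the arm was singled out with its ratios known, so ratios between genotypes are described here without a test of the arm.

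A human cell normally carries 2 copies of each autosomal arm, and for most genes the RNA level follows the number of gene copies unless the gene is buffered or regulated separately. Gains of 1q recur in cultured human pluripotent stem cells, and MDM4, which encodes an inhibitor of p53, lies on the arm. The arm also carries housekeeping genes of splicing, translation, mitochondria and the proteasome, and the S100 cluster of calcium-binding proteins. Neural crest is the migratory population that leaves the dorsal neural tube of the embryo and forms peripheral neurons, glia, pigment cells and parts of the face. FOXB1 encodes a forkhead transcription factor expressed in the early neural plate.

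The cells were of WA01, an established human embryonic stem cell line. They were plated at 20000 per cm2 with 3 µM CHIR99021, an inhibitor of the kinase GSK3 that activates WNT signalling. The ROCK inhibitor Y-27632 (10 µM), which helps dissociated stem cells survive, was present at the start in every group. The labels give the 2 isogenic unedited lines isoWT1 and isoWT2 and the lines FOXB1 sgRNA-Het and sgRNA-KO, which were edited by CRISPR/Cas9 with a single guide at the translational start of FOXB1. Samples were taken at day 3 (labelled pre-neural crest) and day 5 (neural crest), with 2 replicates in each of the 8 groups of line and day. The expression table has 6 groups: WT, Het and KO at each day. It does not say which of the 4 WT libraries of a day entered its WT group. The genotype that the table calls HOMO was read as the KO of the labels. Each edited genotype is 1 line, so genotype, line and any change that a line acquired in culture cannot be told apart, and DNA copy number was not measured in these data.

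Across the whole table, RNA of FOXB1 itself (chromosome 15) was 18.3, 7.73 and 15.5 FPKM in WT, Het and KO at day 3 and 5.51, 4.47 and 1.86 at day 5. A small edit of the start codon can leave the amount of RNA as it was, so these values are no check of the genotypes. Of 12 neural crest and plate border markers, 5, 9 and 11 reached 1 FPKM in WT, Het and KO at day 3 and 7, 11 and 11 at day 5, and their summed level ranged from 19.5 FPKM (WT, day 3) to 279 (KO, day 5). SOX10, a defining crest marker, was 0.39 FPKM in WT, 7.07 in Het and 34.6 in KO at day 5, and TWIST1 stayed below 0.4 FPKM in every group. Summed neural progenitor markers were 61.8, 16.8 and 6.47 FPKM at day 3 and 31.1, 22.5 and 3.58 at day 5. Summed pluripotency markers were 112, 68.8 and 151 FPKM at day 3 and 65.1, 53.7 and 46.1 at day 5. Those of mesoderm and endoderm were 1.82, 3.90 and 20.5 at day 3 and 0.972, 2.30 and 5.35 at day 5. Those of non-neural ectoderm were 89.5, 76.3 and 115 at day 3 and 119.6, 124 and 96.7 at day 5. Of the 6 non-neural ectoderm markers, 3, 2 and 3 reached 1 FPKM at day 3 and 2, 2 and 3 at day 5. The keratin genes KRT8 and KRT18 made up most of their sum in every group (54.2 and 34.2 FPKM in WT at day 3). GATA3, TP63 and GRHL2 reached at most 0.34, 0.03 and 0.14 FPKM in any group. The part of such marker differences in the 1q values was not tested. In bulk RNA, fewer cells of a type and less RNA per cell cannot be told apart. Every FPKM is 1 deposited value per group, without a value per library, so no spread over replicates can be shown. The standard error (SE) given beside a log2 ratio is the one implied by the authors' deposited test score, and a gene is called where the authors' deposited q is below 0.05. Read as normal, these errors give larger p-values than the deposited ones, so a gene can be called although its SE looks wide. Replicates are not described as separate cultures, so these errors may be technical.

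Promoter sequences of 5 members are shown because these genes mark the range of behaviour on the arm: TXNIP and UBE2T were the called genes that went below WT at day 3 with the most RNA there, SHC1 and PARP1 rose by near or above the median of the arm on both days, and S100A11 had the highest mean KO ratio to WT. Each is the 250 bases upstream of the RefSeq start in GRCh38.p14, minus strand of chromosome 1, written 5′ to 3′. Capitals mark CCAAT (or ATTGG, its reverse complement), the letters bound by the factor NF-Y, and CACGAG (either strand), which is part of the paired element through which carbohydrate-responsive factors act on TXNIP. Their places in GRCh38.p14 are chr1:145996580-145996829 (TXNIP), chr1:202341937-202342186 (UBE2T), chr1:154974377-154974626 (SHC1), chr1:226408094-226408343 (PARP1), chr1:152037005-152037254 (S100A11).
TXNIP: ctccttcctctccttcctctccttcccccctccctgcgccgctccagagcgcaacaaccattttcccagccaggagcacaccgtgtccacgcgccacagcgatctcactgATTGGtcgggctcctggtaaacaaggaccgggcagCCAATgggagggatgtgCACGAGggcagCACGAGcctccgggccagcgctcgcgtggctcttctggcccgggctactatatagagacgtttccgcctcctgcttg
UBE2T: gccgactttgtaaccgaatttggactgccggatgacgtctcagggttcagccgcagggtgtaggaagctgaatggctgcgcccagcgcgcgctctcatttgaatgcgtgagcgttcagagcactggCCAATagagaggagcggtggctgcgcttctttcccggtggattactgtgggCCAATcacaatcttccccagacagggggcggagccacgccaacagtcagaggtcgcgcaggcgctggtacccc
SHC1: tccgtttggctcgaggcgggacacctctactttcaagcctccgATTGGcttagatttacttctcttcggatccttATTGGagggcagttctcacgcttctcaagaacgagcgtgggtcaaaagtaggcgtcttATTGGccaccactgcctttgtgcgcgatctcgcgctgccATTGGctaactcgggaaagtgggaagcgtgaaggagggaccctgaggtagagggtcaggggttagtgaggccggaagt
PARP1: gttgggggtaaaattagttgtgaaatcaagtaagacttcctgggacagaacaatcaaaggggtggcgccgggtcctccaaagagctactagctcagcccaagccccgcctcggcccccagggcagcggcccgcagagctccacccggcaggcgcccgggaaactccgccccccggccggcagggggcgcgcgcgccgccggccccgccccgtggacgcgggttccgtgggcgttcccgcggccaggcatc
S100A11: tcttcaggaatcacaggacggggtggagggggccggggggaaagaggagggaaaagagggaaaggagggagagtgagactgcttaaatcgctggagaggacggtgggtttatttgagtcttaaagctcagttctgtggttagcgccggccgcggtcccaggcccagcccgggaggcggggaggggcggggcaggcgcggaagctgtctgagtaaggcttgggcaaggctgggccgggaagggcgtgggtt
A promoter was found for 319 of the 381 members. CCAAT was in 134 of these 319 windows (42.0%) against 33.0% of all 27305 windows of this length, and CACGAG in 21 (6.58%) against 5.62%. The pair of CACGAG copies 5 bases apart in TXNIP, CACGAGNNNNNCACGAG, occurred in 2 of the 27305 windows, and TXNIP was the member that held it. Neither motif was found in the windows of PARP1 and S100A11. Member windows held a median of 19 CpG and 62.8% GC, against 11 and 58 in all windows. The members were chosen by expression level and the other windows were not. These differences are therefore no comparison with broadly expressed genes of other chromosomes. The matches describe letters and not bound sites.

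The 1q genes stood higher in the KO line than in WT and Het, and were about level between Het and WT. The median member level was 17.6 FPKM in WT, 18.8 in Het and 26.9 in KO at day 3, and 21.3, 19.4 and 26.2 at day 5, while the median of 6081 broadly expressed genes on autosomes other than 1 and 12 stayed between 18.4 and 19.6 in all 6 groups. Summed FPKM of the 371 members that are not small RNAs came to 5.39, 5.76 and 8.29% of the sum over those autosomal genes at day 3 and 6.40, 6.37 and 7.85% at day 5. Both KO groups thus held the highest arm share and both WT and Het groups lay below them. FPKM is scaled within a library, so a share of this kind is relative to the other genes.

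As a gene dosage question, 3 copies against 2 would give a ratio of 1.5, or 0.58 on the log2 scale, if RNA followed copy number. The median KO ratio at day 3 was 1.53 against WT (log2 0.62, interquartile range 0.37 to 0.80) and 1.49 against Het (0.58, 0.40 to 0.72). Above a ratio of 1 were 350 (91.9%) and 362 (95.01%) of the 381 members. At day 5 the median was 1.26 against WT (0.34, 0.08 to 0.62) and 1.35 against Het (0.44, 0.12 to 0.69), with 305 and 316 members above 1. The Het ratio to WT had a median of 1.02 at day 3 and 0.957 at day 5, with 202 and 162 members above 1. Thus the same arm was at about 1.5 in both day 3 comparisons that contain the KO line and at about 1 in the comparison without it. Comparisons that share a group (KO in the first 2, WT in the others) are given side by side and are not independent of each other.

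The short arm of the same chromosome did not show this level. Its 452 broadly expressed genes had median log2 ratios of -0.01 (KO against WT, day 3), -0.20 (KO against WT, day 5), -0.01 (KO against Het, day 3) and -0.16 (KO against Het, day 5). The 1q median lay above the 1p median by 0.63, 0.53, 0.58 and 0.60 in that order, which are ratios of 1.54, 1.45, 1.499 and 1.51. Set against the other autosomes in place of 1p, the day 5 differences were 0.36 and 0.40. Which reference is used therefore decides whether the day 5 arm ratio reads near 1.5 or below it. The log2 change of the median 1q gene from day 3 to day 5 was 0.18 in WT, 0.09 in Het and -0.08 in KO.

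**Figure D1:**
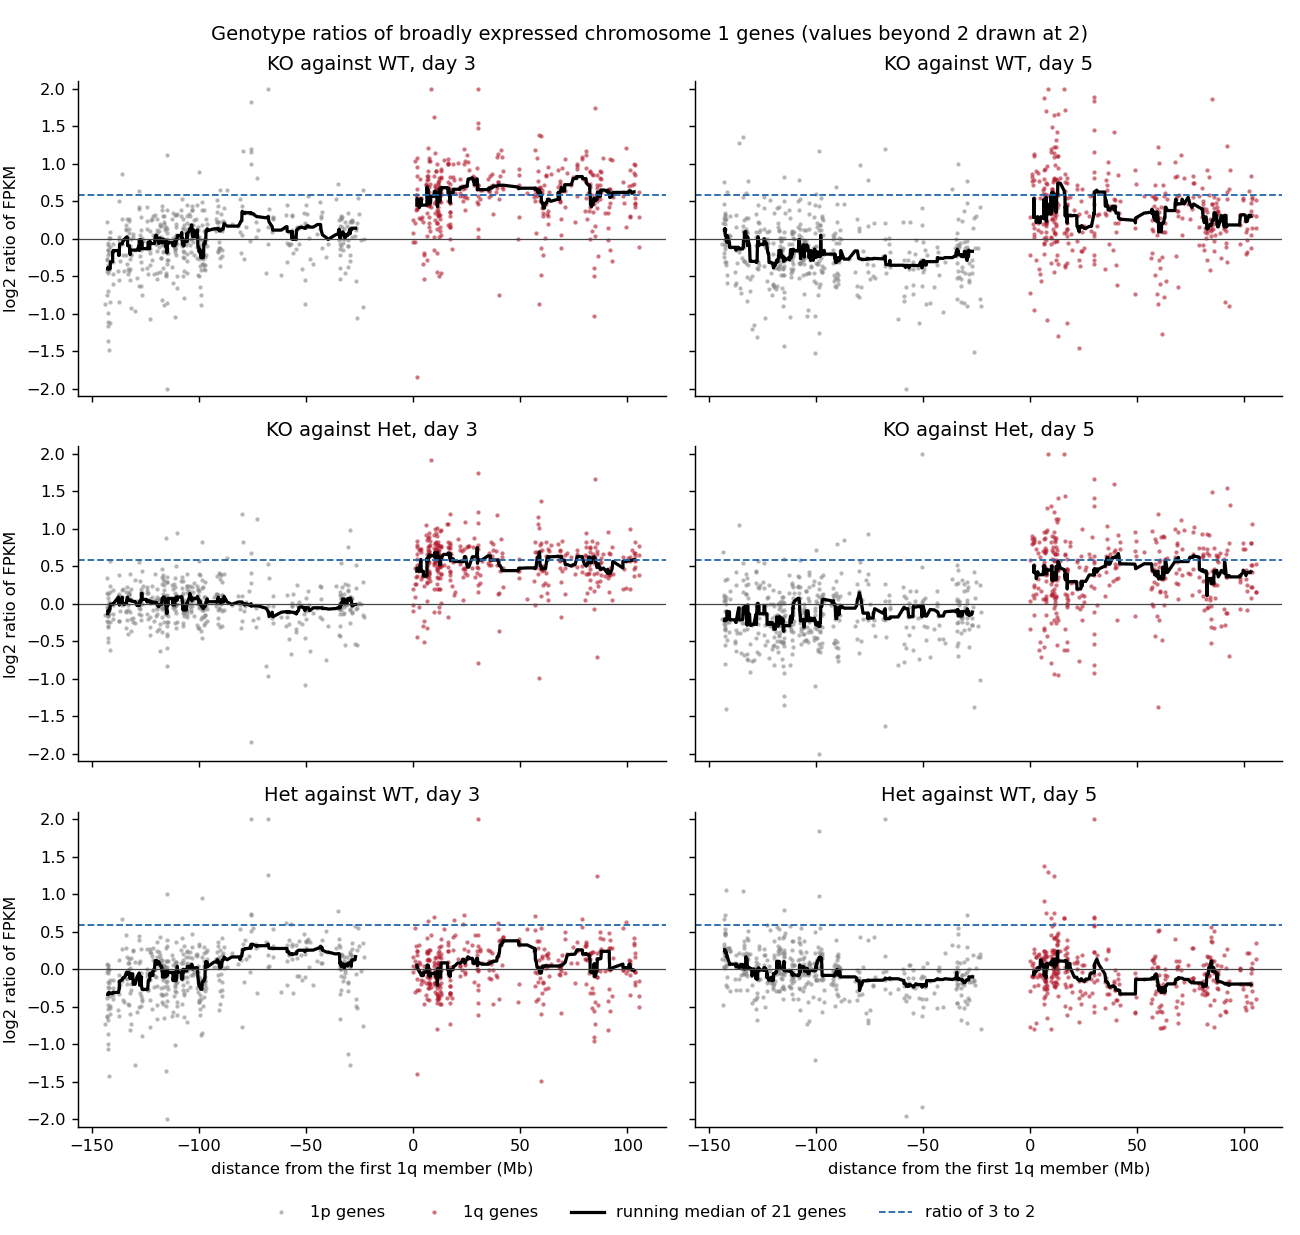
Log2 ratio of FPKM (vertical axis) for each broadly expressed chromosome 1 gene against its distance in Mb from the first 1q member (horizontal axis) in 6 comparisons, with 1p genes grey, 1q genes red, a black running median of 21 genes and a dashed line at a ratio of 3 to 2. The 1q running median stays between 0.41 and 0.83 for KO against WT at day 3 and between 0.37 and 0.75 for KO against Het at day 3, and for Het against WT between -0.21 and 0.38 at day 3 and between -0.33 and 0.24 at day 5.

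Along the arm, the KO excess had no end that the genes could show. In runs of 21 neighbouring members, the median KO ratio to Het at day 3 lay between 0.37 and 0.75 on the log2 scale, and all 361 runs were above 0.3. On 1p, 432 runs covered -0.17 to 0.14 in the same comparison. The lowest 1q run was centred on PPIAL4D, a cyclophilin-like copy near the centromere, and the highest on KLHL20, an adaptor of a ubiquitin ligase. Against WT at day 3 the runs lay between 0.41 (centred on MDM4) and 0.83 (centred on EPRS), and on 1p between -0.40 and 0.36. Without KO, the 1q runs of Het against WT went from -0.21 to 0.38 at day 3, with 12 of 361 above 0.3, and from -0.33 to 0.24 at day 5. At day 5 the KO runs spread more widely, from 0.09 to 0.74 against WT and from 0.11 to 0.67 against Het. The lowest day 5 runs were centred on SNRPE, a core spliceosome protein gene, and LIN9, a cell cycle transcription cofactor gene.

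In 10 Mb windows the same was seen. The 10 windows with at least 19 members had medians of 0.39 to 0.71 for KO against WT at day 3 and 0.38 to 0.64 for KO against Het at day 3. Both lows were in the first window, from 140 to 150 Mb. That window holds 15 near-identical family copies, of the PPIAL4, NBPF, FAM72, SRGAP2 and GPR89 families and PDE4DIP, whose reads cannot be placed with certainty. These 15 had medians of 0.24 against WT and 0.33 against Het at day 3, while the other 16 members of the window were at 0.58 and 0.56. The families were picked after the values were seen, and the other 16 still hold pseudogenes such as PFN1P2 and PDIA3P. The part of read placement in the low window was not tested. PPIAL4G itself was 39.9, 44.9 and 41.9 FPKM in WT, Het and KO at day 3 and 52.5, 56.7 and 44.96 at day 5. At the far end, ZNF692 was 18.0, 12.7 and 16.7 FPKM at day 3 and 15.7, 11.99 and 17.4 at day 5, so KO was above Het on both days but not clearly above WT. The window from 240 to 250 Mb as a whole had medians of 0.62 against WT and 0.58 against Het at day 3. No member lay between FAM72B and PPIAL4G, so the position at which the ratio changes near the centromere cannot be read from these genes.

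**Figure D2:**
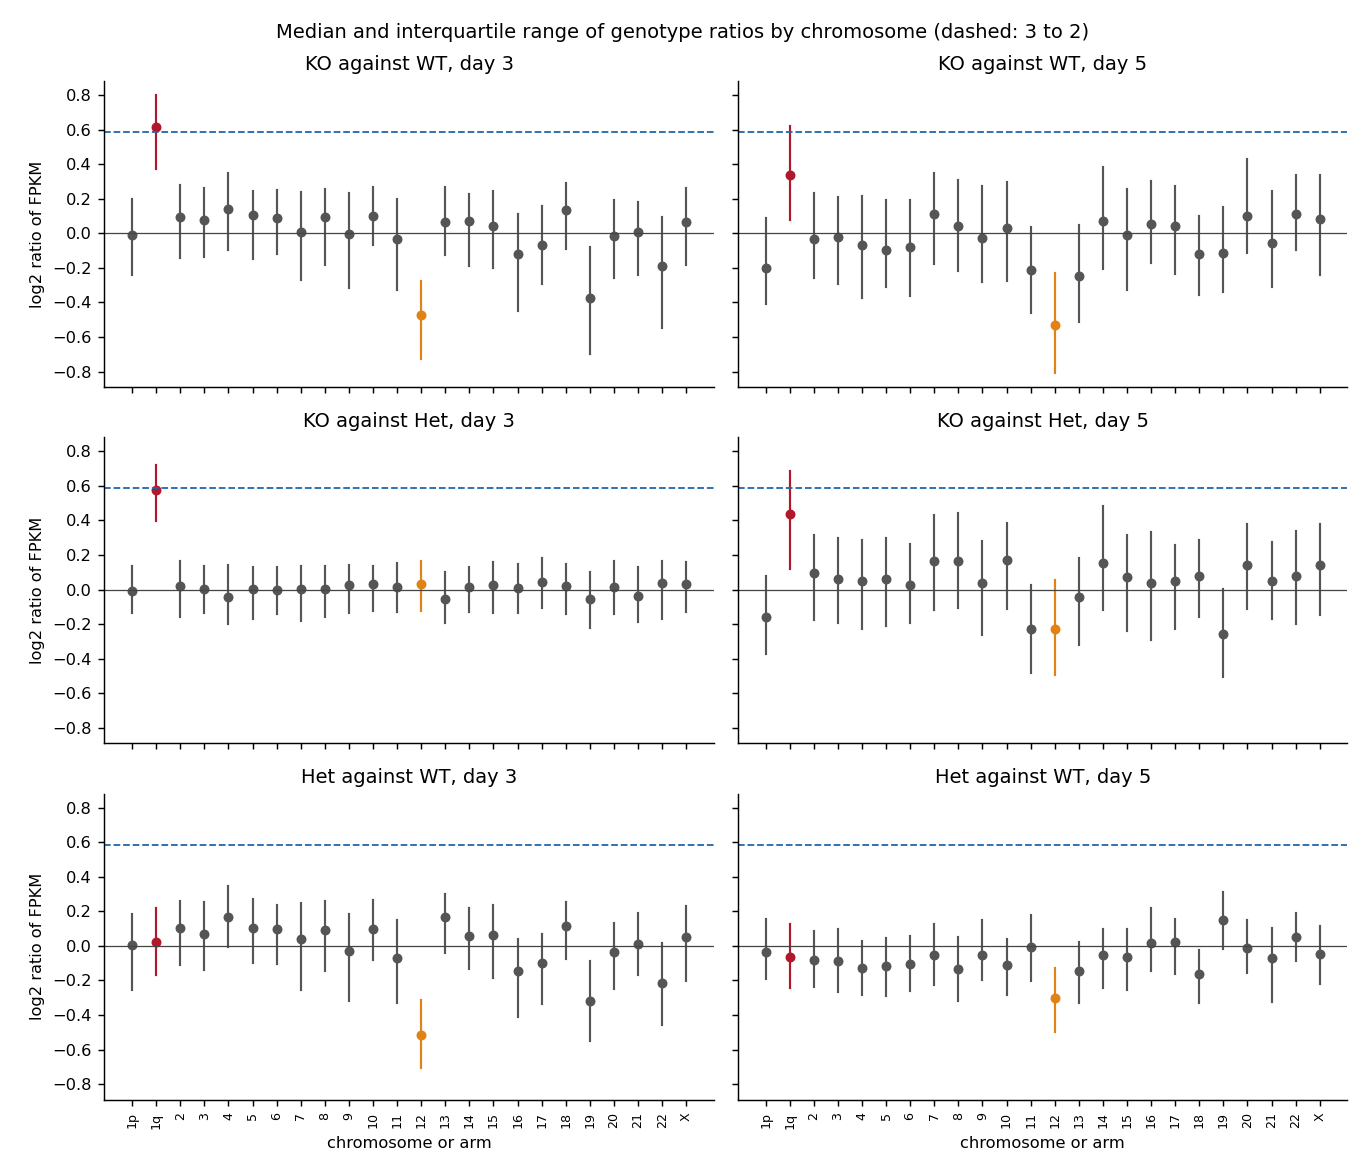
Median (points) and interquartile range (bars) of the log2 ratio of FPKM for broadly expressed genes of each chromosome, with chromosome 1 split into arms, 1q in red and chromosome 12 in orange, and a dashed line at 3 to 2. The 1q point is above every other chromosome in the 4 comparisons that contain KO and among them in both comparisons of Het with WT.

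No other chromosome had a median near that of 1q in the comparisons with KO. Leaving out chromosome 12, the 22 other parts (1p, the other autosomes and X) had medians between -0.37 (chromosome 19) and 0.14 (chromosome 4) for KO against WT at day 3, and between -0.05 and 0.04 for KO against Het at day 3. At day 5 they ranged from -0.25 (chromosome 13) to 0.11 (chromosome 22) against WT and from -0.25 (chromosome 19) to 0.17 (chromosome 10) against Het. Chromosome 12 stood apart in another way, with medians of -0.47 and -0.53 for KO against WT and -0.52 and -0.30 for Het against WT at days 3 and 5, and for KO against Het 0.03 at day 3 and -0.23 at day 5. The 1q difference is present in the comparison of KO with Het at day 3, where chromosome 12 and every other chromosome were near 0.

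GC content moved with some ratios. Over genes of other autosomes, the rank correlation of transcript GC with the ratio was -0.55 for KO against WT at day 3, -0.68 for Het against WT at day 3 and 0.05 for KO against Het at day 3. These are correlations across genes of the same libraries and are given as a description. When the members were split by GC content into 3 equal parts, 1q genes exceeded the other autosomes' genes of the same GC by 0.54, 0.59 and 0.60 (lowest to highest GC) for KO against Het at day 3, and by 0.50, 0.57 and 0.75 for KO against WT at day 3. Split by expression level in the same way, they exceeded them by 0.53, 0.56 and 0.60, and by 0.59, 0.58 and 0.63. The arm difference was thus present at low and high GC and at low and high level.

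**Figure D3:**
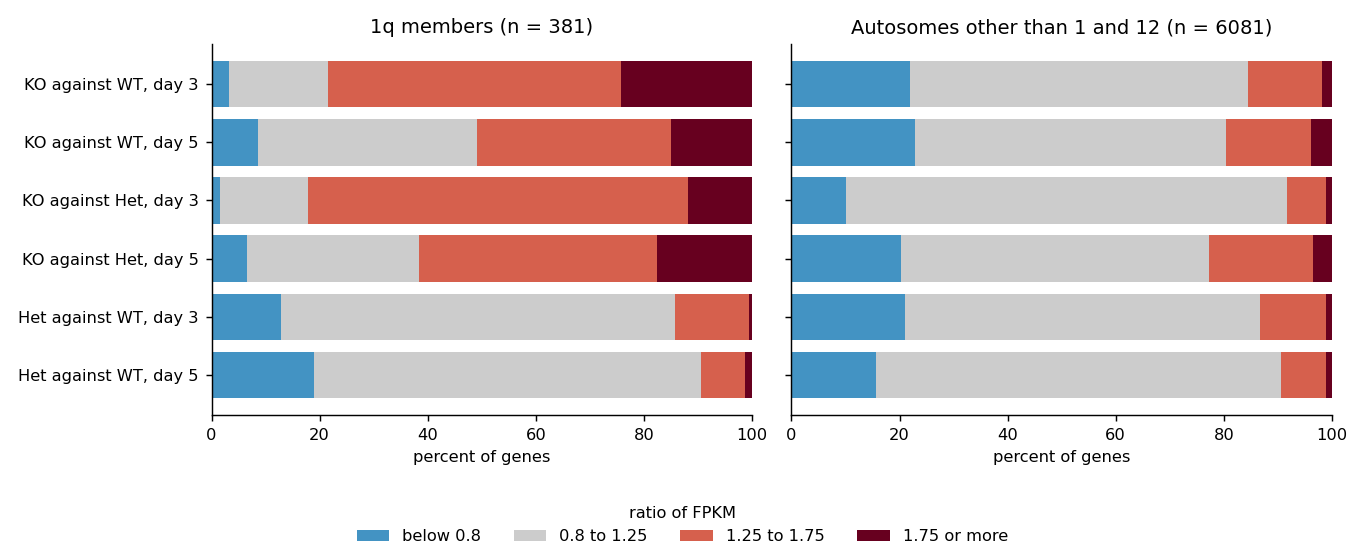
Percent of genes (horizontal axis) whose FPKM ratio fell below 0.8, from 0.8 to 1.25, from 1.25 to 1.75, or at 1.75 and above, in 6 comparisons, for the 381 1q members (left) and 6081 genes of other autosomes (right). The class around 1.5 holds 70.3% of members for KO against Het at day 3, against 7.27% of the other genes.

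Single genes spread around the arm median about as widely as genes of other autosomes spread around theirs. The interquartile range of the log2 KO ratio was 0.43 against WT and 0.32 against Het at day 3 (0.49 and 0.30 on the other autosomes), and 0.54 and 0.57 at day 5 (0.55 and 0.55). The KO ratio to Het at day 3 was between 1.25 and 1.75 in 268 members (70.3%), from 0.8 to 1.25 in 62, below 0.8 in 6 and above the class in 45. For KO against WT at day 3 the share was 54.3%, with 92 members at 1.75 or more. At day 5 it was 36.0% against WT and 44.1% against Het, where the arm medians lie nearer the lower edge of the class. A single gene cannot be assigned a copy number from these ratios, because the median half-width of the 95% interval implied by the authors' score was 0.89 for both day 3 comparisons. The interval of KO against Het at day 3 held a ratio of 1.5 in 374 members and held no change in 354. These intervals are wider than the authors' test implies. At day 3 the score was 0.62 (against WT) and 0.71 (against Het) of the size that a normal reading of the deposited p-values gives.

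The KO ratio to WT was above 1 on both days in 292 members (76.6%, against 28.2% of genes on other autosomes) and below 1 on both days in 18. The KO ratio to Het was above 1 on both days in 311 (81.6%, against 32.3%) and below 1 on both in 14. Day 3 and day 5 share no group, and over the 381 genes the rank correlation between days was 0.34 against WT and 0.30 against Het. Whether the KO ratio of a gene differed between days was tested over all genes with the implied SE and Benjamini-Hochberg adjustment. No member was called out of 381, against 0.362% of 14074 genes tested for KO against WT and 0.171% of 14016 for KO against Het, and 12 and 3 members had an unadjusted p below 0.05. The count depends on the SE: scaled so that a normal reading matches the authors' deposited p-values, it called 12 members against WT and 1 against Het, where 5.29% and 1.46% of all genes were called.

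By the authors' deposited q, 93 members were called higher and 3 lower in KO than in WT at day 3, where 4.34% of all tested genes were called higher and 5.17% lower (9.51% in either direction). At day 5, 42 were called higher and 8 lower, against 7.58% and 5.68% of all tested genes (13.3% in either direction). Against Het, the authors' deposited table called 21 higher and 1 lower at day 3 (2.3% and 0.54% of all tested genes, 2.84% together). At day 5 it called 36 higher and 1 lower (5.55% and 2.51%, 8.06% together). Between Het and WT it called 1 member higher (ACTA1) and 5 lower (BTG2, F11R, GUK1, IRF2BP2, TXNIP) at day 3 (1.68% and 4.63% of all tested genes, 6.31% together). At day 5 it called 3 higher (C1orf54, CA14, S100A11) and 0 lower (1.14% and 1.02%, 2.16% together). Since the arm was chosen for its KO ratio, nothing further is read from the KO counts.

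MDM4 and the other p53 and survival genes came to 8 members. Their median log2 KO ratio was 0.51 against WT and 0.63 against Het at day 3, and 0.11 and 0.40 at day 5. Of the 8, the authors' deposited table called 3 higher against WT at day 3 (BCL9, MCL1 and TP53BP2) and 1 at day 5 (TRAF5). For this list and those below, the shares called higher among all 381 members and among all tested genes serve as reference. Against WT they were 24.4% and 4.34% at day 3, and 11.02% and 7.58% at day 5. Against Het they were 5.51% and 2.3% at day 3, and 9.45% and 5.55% at day 5. Whether any list differed from these shares was not tested. MDM4 was 11.1, 9.89 and 14.1 FPKM in WT, Het and KO at day 3 and 10.997, 8.89 and 13.3 at day 5. The KO group was the highest on each day, but the log2 ratios of 0.34 (SE 0.42) and 0.27 (SE 0.43) against WT and 0.51 (SE 0.41) and 0.58 (SE 0.44) against Het were not called. MCL1, which encodes an anti-apoptotic BCL2 family protein, was 69.5, 80.5 and 124 FPKM at day 3 and 98.1, 71.2 and 94.6 at day 5. It rose in KO against WT at day 3 (log2 0.84, SE 0.41) and stood at the WT level at day 5. TP53BP2, a p53-binding pro-apoptotic cofactor gene, was 24.96, 27.5 and 43.4 FPKM at day 3 and 26.2, 20.8 and 32.0 at day 5, and was called higher than WT at day 3. BTG2, an antiproliferative p53 target, did not follow the arm: it was 21.1, 7.49 and 19.4 FPKM at day 3 and 79.7, 53.7 and 48.0 at day 5, low in Het at day 3 and highest in WT at day 5. Its rise in KO against Het at day 3 (log2 1.37, SE 0.49) was the only call of this group against Het.

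Of 13 cell division genes, 12 had a KO ratio above 1 against WT at day 3 and 8 at day 5, with medians of 0.61 and 0.04. Against WT, the authors' deposited table called 1 higher and 1 lower (UBE2T) at day 3, and 1 higher at day 5. The gene called higher was INTS3 on both days, which encodes an Integrator subunit, so the other genes of this list add no higher call. CKS1B, the kinase subunit that helps degrade the inhibitor p27, was 272, 264 and 398 FPKM at day 3 and 494, 422 and 362 at day 5, so KO was highest at day 3 and lowest at day 5. ANP32E, a histone chaperone for H2A.Z, was 114, 135 and 163 FPKM at day 3 and 106, 80.9 and 106 at day 5. UBE2T, the ubiquitin-conjugating enzyme of the Fanconi anaemia pathway, went the other way: 75.3, 82.0 and 41.2 FPKM at day 3 and 103, 98.7 and 73.6 at day 5. It fell in KO at day 3 against WT (log2 -0.87, SE 0.46) and Het (-0.99, SE 0.46), and KO was the lowest group on both days.

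All 22 chromatin and transcription members had a KO ratio above 1 at day 3, against WT and against Het, with medians of 0.63 and 0.62. At day 5, 17 and 18 were above 1. The authors' deposited table called 7 higher against WT and 3 against Het at day 3, and 2 and 1 at day 5, with 0 lower. PARP1, which senses DNA breaks, was 147, 144 and 243 FPKM in WT, Het and KO at day 3 and 103, 116 and 193 at day 5. KO was the highest group on each day, and PARP1 rose against WT at day 3 (log2 0.73, SE 0.41) and day 5 (0.91, SE 0.41). HDGF, a chromatin-binding growth factor gene, was 226, 239 and 342 FPKM at day 3 and 313, 287 and 248 at day 5, highest in KO at day 3 and lowest in KO at day 5. VPS72, a subunit of H2A.Z deposition complexes, was 65.7, 57.2 and 75.8 FPKM at day 3 and 65.6, 76.7 and 69.4 at day 5, which put KO between the other groups at day 5. KDM5B, an H3K4 demethylase gene, was 22.1, 28.6 and 57.6 FPKM at day 3 and 41.2, 33.8 and 59.9 at day 5, and was named after its values were seen.

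Among 17 splicing and RNA processing members, all had KO ratios above 1 at day 3 in both comparisons (medians 0.65 and 0.52), and 13 and 15 did at day 5 (0.30 and 0.45). The authors' deposited table called 3 higher against WT and 1 against Het at day 3, and none in either direction at day 5. DHX9, an RNA helicase, was 127, 142 and 202 FPKM at day 3 and 70.7, 63.3 and 102 at day 5, with KO highest on both days. HNRNPU, a nuclear matrix RNA-binding protein gene, was 177, 190 and 219 FPKM at day 3 and 140, 122 and 137 at day 5. SNRPE was 132, 136 and 184 FPKM at day 3 and 162, 153 and 132 at day 5. None of these 3 was called in a comparison of KO with WT or Het.

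The 10 translation and ribosome assembly members had the highest list median for KO against WT at day 3 (0.88), and all 10 were above 1 in the 4 comparisons with KO. The authors' deposited table called 5 higher against WT at day 3 and 3 at day 5, and against Het 0 and 1. EPRS and IARS2, which charge tRNAs in the cytosol and in mitochondria, share a locus in the table, so their reads may be split between them. EPRS was 35.1, 42.0 and 66.8 FPKM at day 3 and 40.7, 37.6 and 59.6 at day 5, and was called higher than WT at day 3. IARS2 was 32.4, 38.5 and 63.3 FPKM at day 3 and 40.6, 37.4 and 72.3 at day 5. TARBP1, a tRNA methyltransferase gene, showed a smaller step, 21.2, 21.3 and 26.9 FPKM at day 3 and 19.9, 14.7 and 22.2 at day 5.

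For 15 mitochondrial members the KO medians were 0.49 and 0.62 at day 3 (against WT and Het) and 0.35 and 0.42 at day 5. The authors' deposited table called 0 at day 3 and 1 higher in each comparison at day 5 (MRPL24, a mitochondrial ribosome protein). TOMM20, an import receptor of the outer membrane, was 128, 107 and 171 FPKM at day 3 and 208, 157 and 200 at day 5. MRPS21, another mitochondrial ribosome protein, was lowest in KO on both days: 272, 277 and 223 FPKM at day 3 and 266, 293 and 231 at day 5, with no call.

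All 15 ubiquitin and proteasome members were above 1 for KO against WT on both days, with medians of 0.67 and 0.46, and all 15 were above 1 against Het at day 3 (0.62) and 14 at day 5 (0.45). The authors' deposited table called 4 higher against WT at day 3 and 1 at day 5, and against Het 0 and 1. PSMB4, a subunit of the proteasome core, was 265, 235 and 364 FPKM at day 3 and 278, 297 and 311 at day 5. PSMD4, a ubiquitin receptor of the proteasome cap, was 139, 127 and 189 FPKM at day 3 and 116, 130 and 161 at day 5. UFC1, the conjugating enzyme for UFM1, was 95.7, 94.6 and 159 FPKM at day 3, called higher than WT, and 116, 129 and 127 at day 5. In all 3, KO was the highest group at day 3, and at day 5 it was highest for PSMB4 and PSMD4.

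The 16 secretory and lysosomal members had medians of 0.54 and 0.56 at day 3 and 0.39 and 0.33 at day 5. The authors' deposited table called 2 higher against WT at day 3 and 1 at day 5, and against Het 0 and 1. SRP9, a signal recognition particle subunit, was 374, 362 and 484 FPKM at day 3 and 421, 405 and 425 at day 5. SSR2, of the translocon-associated complex, was 215, 202 and 302 FPKM at day 3 and 285, 333 and 354 at day 5. ARF1, the GTPase that recruits coatomer, was 147, 137 and 201 FPKM at day 3 and 212, 231 and 226 at day 5. For each of the 3, the KO log2 ratio to WT was 0.37 to 0.49 at day 3 and at most 0.31 at day 5.

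The arm encodes 3 of the proteins of gamma-secretase, the membrane protease that activates NOTCH: APH1A, NCSTN and PSEN2. APH1A was 50.2, 46.9 and 69.2 FPKM at day 3 and 57.6, 68.0 and 92.1 at day 5. NCSTN, whose locus overlaps COPA in the table, was 32.5, 38.4 and 67.9 FPKM at day 3 and 40.1, 45.8 and 72.5 at day 5. PSEN2 was 10.7, 8.97 and 15.97 FPKM at day 3 and 5.52, 6.17 and 5.999 at day 5. KO was highest for all 3 at day 3 and for APH1A and NCSTN at day 5, and none was called between genotypes. PSEN2 was called lower at day 5 than at day 3 in WT and KO.

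The 12 cytoskeleton, lamina and matrix members had the highest day 5 KO medians of the 10 lists (0.73 against WT and 0.82 against Het, after 0.71 and 0.67 at day 3). The authors' deposited table called 6 higher against WT on each day, and 3 and 5 higher against Het, with 0 lower. Of all tested genes, 4.34% and 7.58% were called higher against WT at days 3 and 5, and 2.3% and 5.55% against Het. SHC1, which is not a structural gene, was among those called each time. SHC1, an adaptor of receptor tyrosine kinases, was 40.4, 39.95 and 80.6 FPKM at day 3 and 42.9, 51.5 and 100.1 at day 5. It rose in KO in all 4 comparisons, with log2 ratios of 1.00 (SE 0.41) and 1.22 (SE 0.43) against WT and 1.01 (SE 0.42) and 0.96 (SE 0.44) against Het. TPM3, a tropomyosin gene, was 118, 123 and 183 FPKM at day 3 and 103, 110 and 124 at day 5. ARPC5, of the actin-nucleating Arp2/3 complex, was 41.5, 63.8 and 69.9 FPKM at day 3 and 54.3, 53.7 and 77.5 at day 5, so Het was near KO at day 3. LAMC1, the laminin gamma 1 chain, was 29.2, 27.2 and 62.1 FPKM at day 3 and 35.9, 31.6 and 95.8 at day 5. LMNA, the gene of lamins A and C, was 7.32, 6.32 and 9.08 FPKM at day 3 and 8.63, 11.6 and 21.4 at day 5. LAMC1 and LMNA were named after their values were seen.

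**Figure D4:**
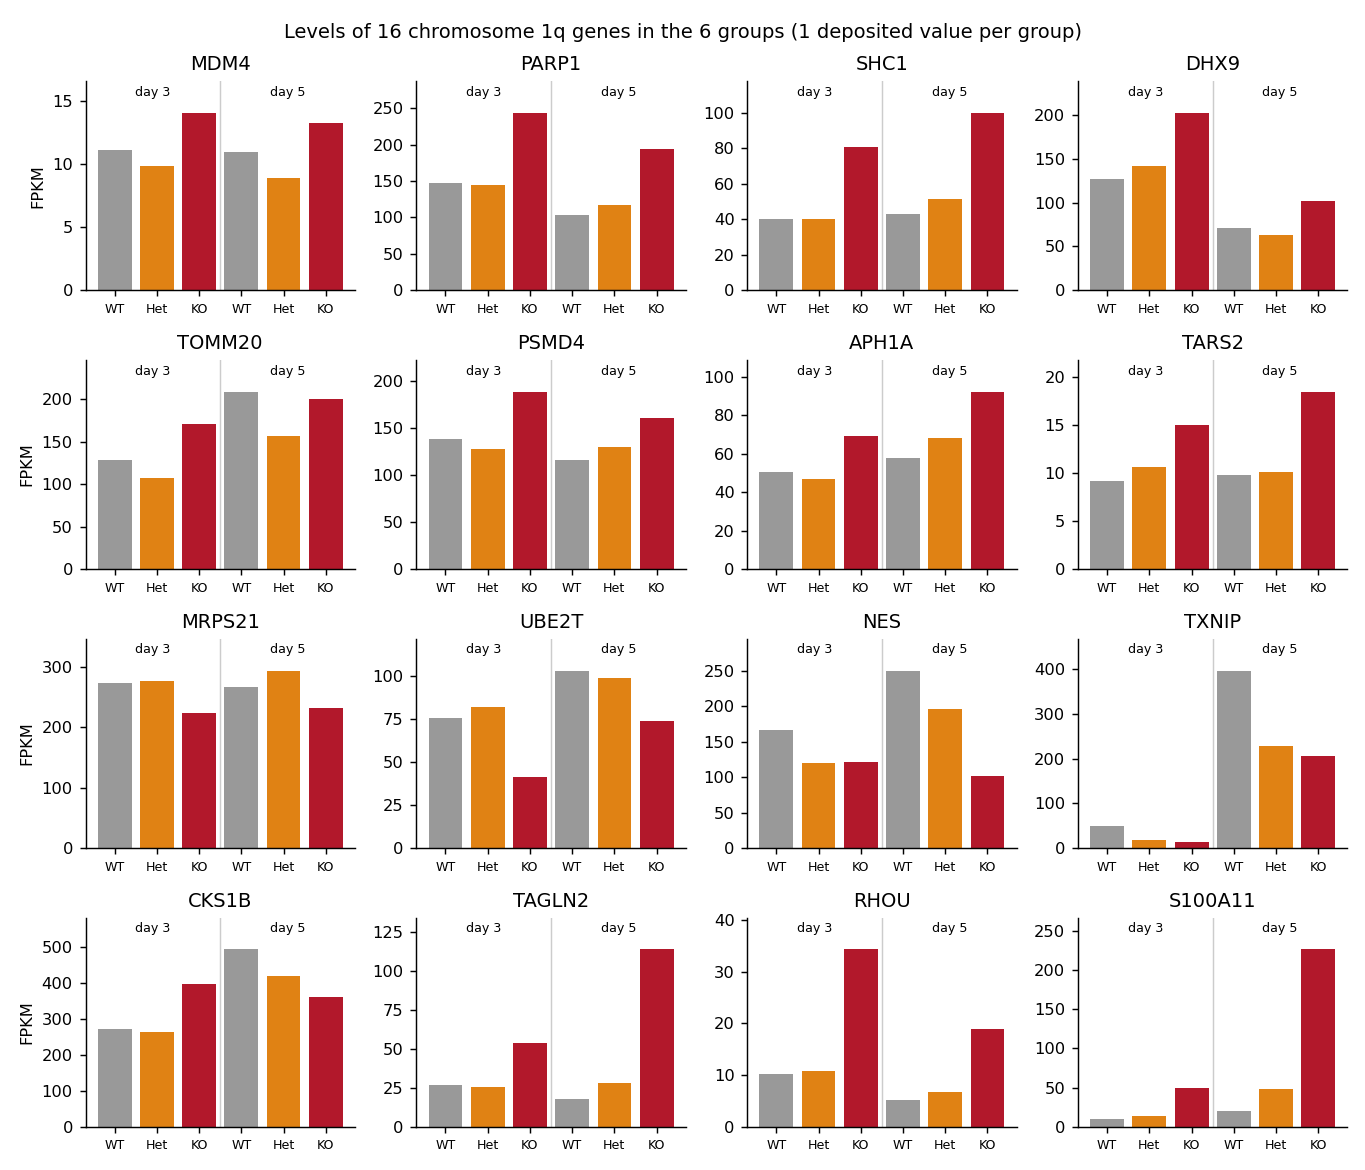
FPKM (vertical axis, from 0) of 16 members of 1q in WT, Het and KO at day 3 and day 5, 1 deposited value per group and no error bar. MDM4, PARP1, SHC1, DHX9, PSMD4, APH1A, TARS2 and RHOU have their highest bars in KO on both days, MRPS21, UBE2T and TXNIP have their lowest there, and S100A11 and TAGLN2 go far beyond a ratio of 1.5 at day 5.

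A few members lay far above the arm. S100A11, a calcium-binding protein gene, was 9.59, 13.2 and 49.9 FPKM in WT, Het and KO at day 3 and 19.6, 48.2 and 226 at day 5. Its log2 KO ratio was 2.38 (SE 0.59) and 3.53 (SE 0.52) against WT and 1.92 (SE 0.58) and 2.23 (SE 0.51) against Het, and it was also called higher in Het than WT at day 5. S100A4, another S100 gene of the arm, was 37.0, 60.0 and 113 FPKM at day 3 and 47.7, 76.8 and 109 at day 5, with Het between WT and KO on both days. TAGLN2, an actin-binding transgelin gene, was 26.8, 25.7 and 53.7 FPKM at day 3 and 17.6, 28.3 and 114 at day 5, and RHOU, a small GTPase gene, was 10.3, 10.8 and 34.3 at day 3 and 5.22, 6.74 and 19.01 at day 5. TAGLN2 and RHOU rose in KO in all 4 comparisons. SNORD74, a small nucleolar RNA within GAS5, was also among the 5 highest, with implied SEs above 11, and poly-A libraries and FPKM measure such short RNAs poorly.

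Other members went below WT although most of the arm was above it. TXNIP, the thioredoxin-interacting protein that is induced by glucose, was 50.1, 18.9 and 13.97 FPKM at day 3 and 397, 228 and 205 at day 5. WT was highest on both days and Het lay near KO, with log2 KO ratios of -1.84 (SE 0.47) and -0.95 (SE 0.45) against WT, both called, and -0.44 (SE 0.47) and -0.15 (SE 0.41) against Het. NES, encoding the neural progenitor filament nestin, was 166, 120 and 121 FPKM at day 3 and 250, 196 and 101.5 at day 5, and it fell in KO at day 5 against WT (log2 -1.30, SE 0.43) and Het (-0.95, SE 0.44). NUAK2, a stress-responsive kinase gene, was 25.4, 21.2 and 25.7 FPKM at day 3 and 29.9, 17.3 and 12.4 at day 5, and it fell against WT at day 5. SNORA77, another small nucleolar RNA, completes the 5 lowest, with implied SEs above 12.

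**Figure D5:**
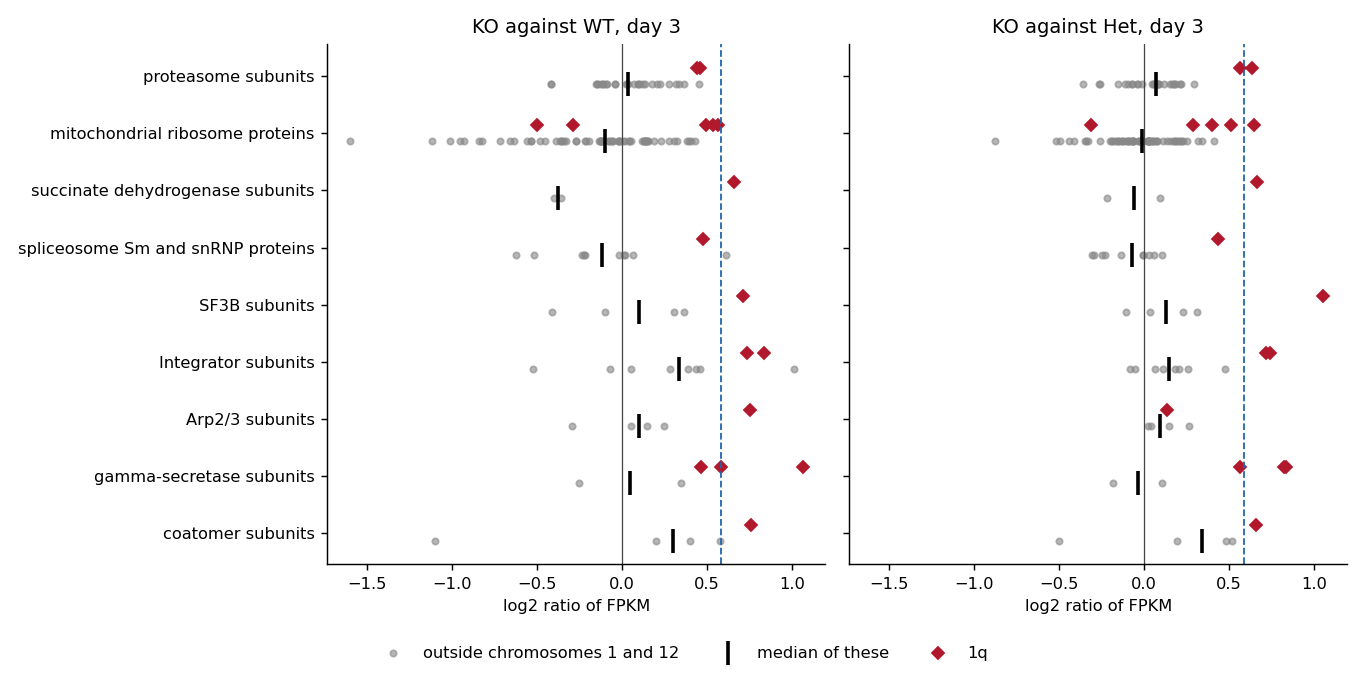
Log2 ratio of FPKM (horizontal axis) of KO against WT and against Het at day 3 for genes of 9 protein families, with 1q members as red diamonds, genes outside chromosomes 1 and 12 as grey points, their median as a black bar and a dashed line at 3 to 2. Against Het, the 1q diamonds lie near or above the dashed line in most families. The bars lie between -0.07 and 0.14, except that of coatomer at 0.34.

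Many members encode subunits whose partners lie on other chromosomes, and partners on 1p and chromosome 12 were left out here. These families were chosen after the values were seen. For KO against Het at day 3, PSMB4 and PSMD4 had a median log2 ratio of 0.60, while 29 proteasome genes outside chromosomes 1 and 12 had 0.07 and none was above 0.30. The 3 gamma-secretase genes were at 0.82 against -0.04 for 2 others. The 5 mitochondrial ribosome genes were at 0.40 against -0.01 for 64 others. COPA was at 0.66, but the median of 4 other coatomer genes was also above 0, at 0.34. These 4 ranged from -0.50 (COPE) to 0.52 (COPG1). ARPC5 was at 0.13 against 0.09 for 4 other Arp2/3 genes, but at 0.75 against 0.10 for KO against WT at day 3 and at 0.53 against -0.11 for KO against Het at day 5. At day 5, against Het, the proteasome difference was smaller (0.19 against -0.11) and that of the mitochondrial ribosome was 0.03, while the gamma-secretase genes were at 0.44 against -0.51.

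Day 5 was also compared with day 3 within each line, where members were called no more often than all tested genes, both directions together. The authors' deposited table called 55 members higher and 18 lower at day 5 than at day 3 in WT (14.4% and 4.72% of members, against 11.2% and 10.4% of all tested genes, 21.6% together). In Het it called 12 and 6 (3.15% and 1.57%, against 4.74% and 2.83%, 7.57% together). In KO it called 14 and 17 (3.67% and 4.46%, against 7.29% and 4.53%, 11.8% together). Broadly expressed genes of autosomes other than 1 and 12 are a closer reference. Of these, 9.95% and 9.75% were called higher and lower in WT, 2.78% and 2.58% in Het and 3.42% and 3.06% in KO. Beside them, members were called more often in both directions in KO, and more often higher but less often lower in WT and Het. TXNIP, BTG2, ELK4 (an ETS transcription factor gene), S100A11 and S100A10 (a partner of annexin A2) rose from day 3 to day 5 in all 3 lines. TXNIP went from 50.1 to 397 FPKM in WT, from 18.9 to 228 in Het and from 13.97 to 205 in KO, a larger step than any genotype ratio of the gene. S100A10 was 11.5, 9.81 and 15.4 FPKM in WT, Het and KO at day 3 and 67.5, 56.2 and 112 at day 5. DHX9 fell between days in all 3 lines. F11R, a tight junction protein gene, was 32.8, 19.8 and 45.6 FPKM at day 3 and 54.6, 35.7 and 25.1 at day 5, and was called higher at day 5 in WT and lower in KO. ILDR2, of a tight junction protein family, was 13.8, 20.9 and 21.7 FPKM at day 3 and 56.3, 34.6 and 20.5 at day 5, a rise that was called in WT. ELK4, S100A10, F11R and ILDR2 were named after their values were seen.

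At the edge of the level rule, C1orf96 (lowest group 5.06 FPKM), PMF1-BGLAP (5.07) and LOC645166 (5.10) were just inside. SOAT1 (4.85), CD55 (4.91) and CNST (4.94) were just outside. In the table, 100 members share their locus with an overlapping gene, and the most abundant member after small RNAs in most groups, H3F3AP4, has near-identical H3.3 copies elsewhere, so its level is uncertain.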

How the data were processed

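RNA from 16 samples (4 lines, 2 days, 2 replicates each) was sequenced from poly-A libraries. The submitters' processing notes name the build hg19, TopHat2 2.1.1 and Cuffdiff 2.2.1. For alignment settings, annotation and library filters no source used here gives details. Per the file headers, the authors' deposited table gives 1 FPKM per gene and group, for 6 groups in 15 comparisons, of which 9 were used. The deposited log2 ratios, test score, p-value and q-value are the authors' own, named as such in the file header. No count, depth or value per library was used here, so precision rests on the SE implied by the score (log2 ratio over score), and depth is unknown.

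From these values, ratios, medians, windows of 10 Mb, running medians of 21 genes and the day 5 minus day 3 test (normal, Benjamini-Hochberg) were computed with Python 3.11.15, numpy 2.4.6, pandas 2.3.3 and scipy 1.17.1, and the test was checked on simulated data. No pseudocount was added. Start positions were raised by 1 to be 1-based. GC came from annotated transcripts, for 371 of 381 members, and promoters from RefSeq GRCh38.p14, for 319.

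The members, role lists and families were chosen with earlier results of these data known, and no p is adjusted over a list. Genes named are MDM4, the 3 most abundant of each of 10 role lists, the 5 highest and 5 lowest by mean KO ratio to WT, the first and last member, those next to the FPKM minimum, and any called between days. Some genes that this rule names are not reported here. Genes outside this rule are marked in the text or named for a count. Alternatives covered the FPKM minimum, a pseudocount of 1, centring, GC bins, weighting, the arm start, the q threshold and adjustment, and the SE scale.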

Additional observations from a re-analysis of the deposited data

How the results depend on the processing

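The arm medians of KO kept their direction under every alternative run: 0.55 to 0.63 (KO against WT, day 3), 0.27 to 0.37 (day 5), 0.55 to 0.60 (KO against Het, day 3) and 0.33 to 0.45 (day 5). The lowest value of the last, 0.33, came with a minimum of 20 FPKM, and the cause was not tested. Counts of called members depended more on the setting. For the comparisons below, the share of all tested genes called is not given under the other settings. A changed count is therefore not read as particular to the members. In the order KO against WT at days 3 and 5, KO against Het at days 3 and 5, Het against WT at days 3 and 5, and day 5 against day 3 in WT, Het and KO, the counts were 96, 50, 22, 37, 6, 3, 73, 18 and 31. With the authors' deposited q below 0.01 they were 41, 26, 7, 15, 3, 1, 42, 11 and 14. With ratios centred on other autosomes and a normal reading of the implied SE they were 3, 12, 2, 3, 0, 1, 12, 3 and 6, because that reading gives larger p-values than those the authors deposited. With ratios centred and the SE scaled to the deposited p-values (added after seeing the data), KO against Het at day 3 gave 10, and 11 with the scaling alone. Adjustment within a comparison gave 7 (KO against Het, day 3), 3 and 1 (Het against WT). A minimum of 1 FPKM, which admits more genes, gave 85 (KO against WT, day 5), 36 and 63 (KO against Het), 11 and 6 (Het against WT), 29 (Het between days) and 58 (KO between days). With the scaled SE, 12 members had a KO ratio to WT that differed between days, against 0 with the implied SE, among them F11R, NUAK2 and TAGLN2, and 1 (F11R) had a KO ratio to Het that differed, where 5.29% and 1.46% of all genes tested were called. No paired analysis was possible because the table holds 1 value per group, and leaving out each replicate could not be run for the same reason.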
